A study of Mus musculus with 7 samples.

Results

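Regions of histone H3 lysine 27 trimethylation (H3K27me3) that lie far from any protein-coding gene were described in globose basal cells, the dividing progenitors of the mouse olfactory epithelium. A region was a run of at least 500 bp on chromosomes 1 to 19 that was covered by broad peaks of both H3K27me3 libraries, lay outside every protein-coding gene and was more than 100 kb from the nearest gene end in the RefSeq gene table of GRCm38.p6. This rule took 1897 of 23378 H3K27me3 regions of that length (8.11%), and these 1897 regions held 3019571 bases. The regions were chosen by H3K27me3 peaks and by distance, so their number, length, H3K27me3 fold enrichment and distance describe the choice. H3K27ac, the noncoding genes, the flanking genes and the sequence of gene starts were not used to choose them.

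The series is a chromatin immunoprecipitation and sequencing (ChIP-seq) study of adult wild-type mice whose olfactory epithelium was regrowing. All were taken 7 to 10 days after methimazole, which destroys most cells of this tissue. Each replicate pooled 3 mice, and c-Kit antibody with magnetic beads was used to select the cells. There were 2 libraries for H3K27me3, 2 for acetylation of the same residue (H3K27ac) and 3 input libraries, with no unlesioned group, and no peak list of an input was used here. By the labels, 1 input served both H3K27me3 replicate 1 and H3K27ac replicate 2. The labels do not say that the replicates of a mark were separate pools of mice, so the spread between them may be technical. Of 12 genes of globose basal cells and progenitors, 12 carried H3K27ac of both libraries at a gene end and 8 carried H3K27me3. Over all protein-coding genes the shares were 63% and 29.6%. H3K27ac was also found at 3 of 4 sustentacular genes, at 2 of 3 mature neuron genes and at 2 of 5 horizontal basal cell genes. Markers of other cells of the epithelium were thus not free of it. Such small counts cannot be told apart from the share of all genes. Of 4 mast cell genes, from another cell that carries c-Kit, 0 carried H3K27ac. Of 4 leukocyte genes 2 did, with Ptprc and Itgam among those that did not. H3K27me3 was found at 4 of 5 horizontal basal cell genes, 1 of 3 mature neuron genes and 1 of 4 mast cell genes. It was found at 0 of 4 sustentacular and 0 of 4 leukocyte genes. The peak lists give no read totals, so sequencing depth is unknown, and a region without a peak had none at this depth.

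H3K27me3 is written by Polycomb Repressive Complex 2 and marks genes that a cell holds silent, above all regulators of other lineages. In mammals the complex gathers at CpG-rich DNA without active transcription, and the mark can then spread over long stretches. Gene deserts are long stretches without protein-coding genes, and those beside developmental regulators are known to hold distant enhancers and long noncoding RNAs (lncRNAs). H3K27ac marks active enhancers and promoters, and a single histone tail cannot carry both modifications at this residue. In pooled cells, overlapping peaks of the 2 marks cannot be told apart from marks in different cells or on different copies of the chromosome.

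The sequences shown here are the starts of noncoding genes that lay under the regions, because the share of starts under H3K27me3 differed with their CpG content. They are the genes of the 12 best-ranked covered starts, ranked by fold enrichment of their region, with the start of most CpG for each gene. The best-ranked covered start without any CpG, that of Gm16013, is added. Each is 300 bases of GRCm38.p6 from RefSeq, from 250 bases before the start to 50 bases after it, read 5′ to 3′ on the strand of the gene, and capitals mark CpG dinucleotides. CpG is its own reverse complement, so both strands hold the same number. The starts lie at chr9:122572251-122572550 on the plus strand for 9530059O14Rik and at chr2:75137405-75137704 on the plus strand for 2600014E21Rik. The start of Gm13652 is chr2:75137926-75138225 on the minus strand, and that of Tunar, an lncRNA of pluripotent and neural cells, is chr12:105336743-105337042 on the plus strand. Gm4718 starts at chr17:85799786-85800085 and Gm26878 at chr8:120879753-120880052, both on the plus strand. Gm33368 starts at chr8:120874548-120874847 and Gm16013 at chr11:71436435-71436734, both on the minus strand.
9530059O14Rik: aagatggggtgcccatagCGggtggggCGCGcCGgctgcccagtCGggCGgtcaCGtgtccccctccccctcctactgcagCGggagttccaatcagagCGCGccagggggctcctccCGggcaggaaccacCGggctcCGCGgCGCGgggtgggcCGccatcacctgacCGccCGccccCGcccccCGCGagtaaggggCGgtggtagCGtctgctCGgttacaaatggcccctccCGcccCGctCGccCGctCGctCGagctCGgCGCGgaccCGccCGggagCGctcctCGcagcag
Tunar: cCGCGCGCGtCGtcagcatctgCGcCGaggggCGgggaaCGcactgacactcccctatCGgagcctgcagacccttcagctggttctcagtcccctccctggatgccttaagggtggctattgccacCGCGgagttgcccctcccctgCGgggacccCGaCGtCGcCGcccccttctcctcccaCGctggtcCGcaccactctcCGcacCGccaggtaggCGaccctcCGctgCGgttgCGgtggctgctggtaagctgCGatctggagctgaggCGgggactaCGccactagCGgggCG
Gm13652: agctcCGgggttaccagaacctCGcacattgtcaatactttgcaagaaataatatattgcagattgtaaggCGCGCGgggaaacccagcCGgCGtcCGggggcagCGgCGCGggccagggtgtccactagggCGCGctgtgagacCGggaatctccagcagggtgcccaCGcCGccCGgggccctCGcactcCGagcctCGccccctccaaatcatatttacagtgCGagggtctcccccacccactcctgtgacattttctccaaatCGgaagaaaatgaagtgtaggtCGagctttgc
2600014E21Rik: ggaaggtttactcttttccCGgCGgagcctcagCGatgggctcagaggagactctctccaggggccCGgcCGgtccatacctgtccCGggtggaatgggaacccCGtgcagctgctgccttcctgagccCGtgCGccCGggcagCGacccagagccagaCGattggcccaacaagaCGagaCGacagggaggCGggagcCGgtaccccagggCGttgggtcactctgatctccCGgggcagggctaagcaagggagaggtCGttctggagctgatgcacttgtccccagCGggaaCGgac
Gm4718: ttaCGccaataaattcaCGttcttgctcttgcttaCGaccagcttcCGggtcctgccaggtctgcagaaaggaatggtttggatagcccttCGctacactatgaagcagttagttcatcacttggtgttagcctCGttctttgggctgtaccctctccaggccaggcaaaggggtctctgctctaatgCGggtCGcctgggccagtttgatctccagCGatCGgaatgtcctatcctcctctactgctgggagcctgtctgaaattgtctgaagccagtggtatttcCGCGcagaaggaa
Gm26878: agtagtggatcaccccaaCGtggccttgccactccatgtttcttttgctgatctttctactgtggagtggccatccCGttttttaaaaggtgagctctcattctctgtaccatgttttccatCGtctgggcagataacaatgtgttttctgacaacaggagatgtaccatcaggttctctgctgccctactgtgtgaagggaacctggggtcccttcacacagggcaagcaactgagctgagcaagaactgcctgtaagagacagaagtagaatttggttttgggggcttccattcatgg
Gm33368: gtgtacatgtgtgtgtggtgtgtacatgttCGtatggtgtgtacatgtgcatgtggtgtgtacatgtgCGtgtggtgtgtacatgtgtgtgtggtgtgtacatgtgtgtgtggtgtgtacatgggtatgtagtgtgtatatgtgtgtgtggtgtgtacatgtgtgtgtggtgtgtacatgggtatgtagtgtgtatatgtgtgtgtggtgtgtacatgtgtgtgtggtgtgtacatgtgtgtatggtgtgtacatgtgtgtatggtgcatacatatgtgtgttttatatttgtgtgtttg
Gm16013: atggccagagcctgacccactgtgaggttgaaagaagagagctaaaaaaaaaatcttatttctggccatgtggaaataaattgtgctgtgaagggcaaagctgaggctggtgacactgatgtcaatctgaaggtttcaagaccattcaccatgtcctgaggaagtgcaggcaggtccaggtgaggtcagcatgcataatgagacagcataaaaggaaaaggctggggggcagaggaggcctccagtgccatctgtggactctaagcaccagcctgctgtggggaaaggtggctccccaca

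The 8 starts ranged from 38 CpG in 300 bases at 9530059O14Rik to 0 at Gm16013. Tunar had 30 CpG, Gm13652 23, 2600014E21Rik 21 and Gm4718 12. Both starts in the longest region of the set, Gm26878 with 3 CpG and Gm33368 with 2, were CpG-poor. G+C content followed a similar order, from 75.7% at 9530059O14Rik to 43.3% at Gm33368, with 50.7% at Gm16013.

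The gene table has 113 microRNA genes wholly in deserts, and 1 was overlapped by a region. Only 100 hairpins could be placed in deserts, and no share over all microRNA genes is given here. 1 microRNA hairpin lay in a region, out of the 100 placed, and it encodes miR-137, a microRNA enriched in neurons that acts in neural differentiation. Its 2 mature forms are shown with the seed, bases 2 to 8, in capitals, since the seed sets which messenger RNAs a microRNA pairs with.
mmu-miR-137-3p: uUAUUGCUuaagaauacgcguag
mmu-miR-137-5p: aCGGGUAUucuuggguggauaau
The hairpin of Mir137 (chr3:118433857-118433929) was covered in full by the region at chr3:118433575-118435285, 1711 bp long. Fold enrichment of H3K27me3 over that region was 6.87 in replicate 1 and 4.63 in replicate 2, both above the medians of the desert regions. H3K27ac peaks of both libraries covered 853 bp of the same region. The desert lies between Snx7, a sorting nexin, and Dpyd, which breaks down pyrimidines, with the hairpin 128 kb from the nearer gene. Of the 100 placed hairpins, 9 lay in or within 10 kb of a region. The other 8 belong to the imprinted microRNA cluster between Rtl1 and Dio3, and the nearest of them, Mir3072, lay 1.07 kb from a region over the end of the lncRNA Mirg. The microRNA of Mir124-2hg, a host transcript that 2 regions overlap, had no hairpin among those placed, so these counts are incomplete.

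The regions were shorter than H3K27me3 regions in genes and much like those between 50 and 100 kb from a gene. Their length ran from 500 to 33316 bp with a median of 1067 bp, and 394 reached 2000 bp, 68 reached 5000 bp and 14 reached 10000 bp. Regions in or touching a gene had a median length of 1370 bp, and those from 50 to 100 kb one of 1092 bp. Fold enrichment, the authors' ratio for the highest peak over each region, had a median of 3.80 in replicate 1 (lowest 2.71, highest 12.7) and 3.40 in replicate 2 (lowest 1.66, highest 7.97). The medians were 4.08 and 3.52 for regions in or touching a gene and 3.79 and 3.37 from 50 to 100 kb. The fold was higher in replicate 1 for 1466 of the 1897 regions. Across the 1897 regions the fold enrichments of the libraries had a Spearman correlation of 0.504, against 0.652 across the 21481 other H3K27me3 regions. These are correlations over regions of the same libraries, and regions are not replicates.

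A −log10 q of at least 2 in both libraries was reached by 656 desert regions, or 34.6%, against 43.1% of all H3K27me3 regions. At a −log10 q of at least 5 the count was 14, or 0.738%, against 6.56%. The 14 include 3 regions, described below, whose −log10 q was out of keeping with their fold. Regions from 50 to 100 kb from a gene had similar shares at the lower threshold, 34.0%, and 1.96% at the stricter one. With a single library the same rule gave 4625 regions from replicate 2 alone and 4557 from replicate 1 alone, so agreement of the libraries removed most candidates. In deserts, 37.5% of replicate 1 peaks and 44.0% of replicate 2 peaks overlapped a peak of the other library. Among peaks in or touching genes the shares were 43.1% and 63.5%.

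**Figure D1:**
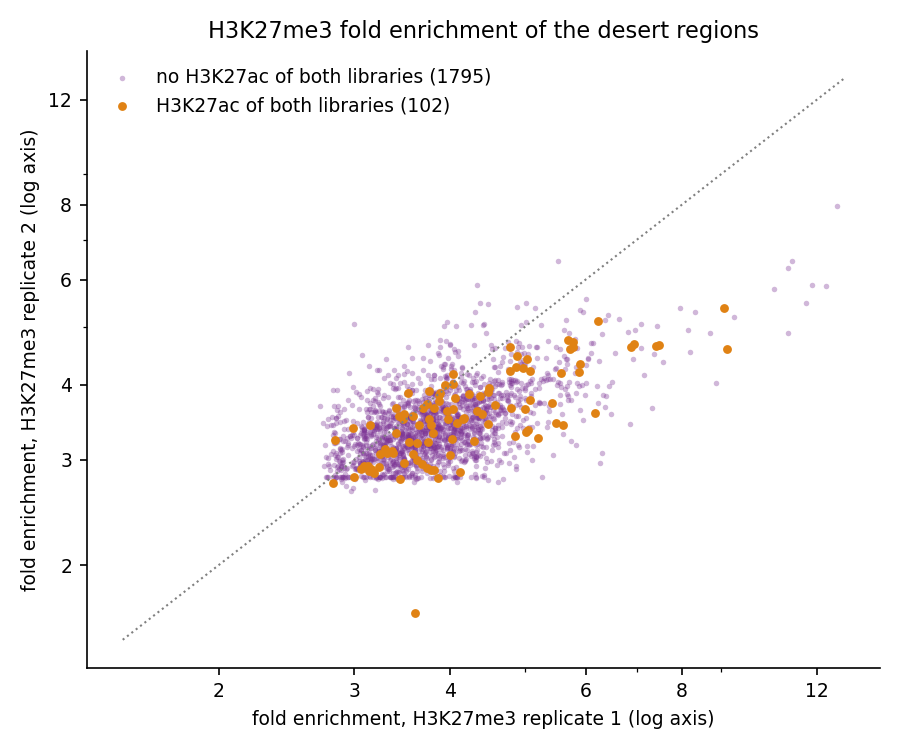
Each point is 1 of the 1897 desert regions, placed by its H3K27me3 fold enrichment in replicate 1 and in replicate 2 (log axes), with the dotted line at equal values. Orange points are the 102 regions with H3K27ac of both libraries, which lie among the others, and most points fall below the line because replicate 1 was higher for 1466 regions.

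The choice of limits did not fall on a gap in the data. The 78 regions from 100 to 105 kb had a median length of 1112 bp and median folds of 3.81 and 3.41. The 105 regions from 95 to 100 kb, just outside the limit, had a median length of 1061 bp and median folds of 3.70 and 3.41. Deserts held 101 regions less than 50 bp above the minimum length, and 119 runs up to 50 bp below it were too short for the rule.

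H3K27me3 thinned out with distance from genes, and it did so in both libraries. Deserts made up 27.3% of the 2402 Mb spanned on the 19 chromosomes, and 0.553% of their bases lay under H3K27me3 of both libraries, against 2.08% over the whole span. The share was 3.86% within 10 kb of a gene, 1.03% from 100 to 250 kb, 0.435% from 250 to 500 kb and 0.0375% beyond 500 kb. In deserts replicate 1 covered 1.24% of bases and replicate 2 covered 1.33%. H3K27ac of both libraries covered 0.215% of desert bases and 4.62% of bases in genes, so it thinned out more steeply. Beyond 500 kb, H3K27ac peaks covered 0.0266% of bases in replicate 1 and 0.0282% in replicate 2. Mappability could not be measured here, and its part in these shares was not tested.

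**Figure D2:**
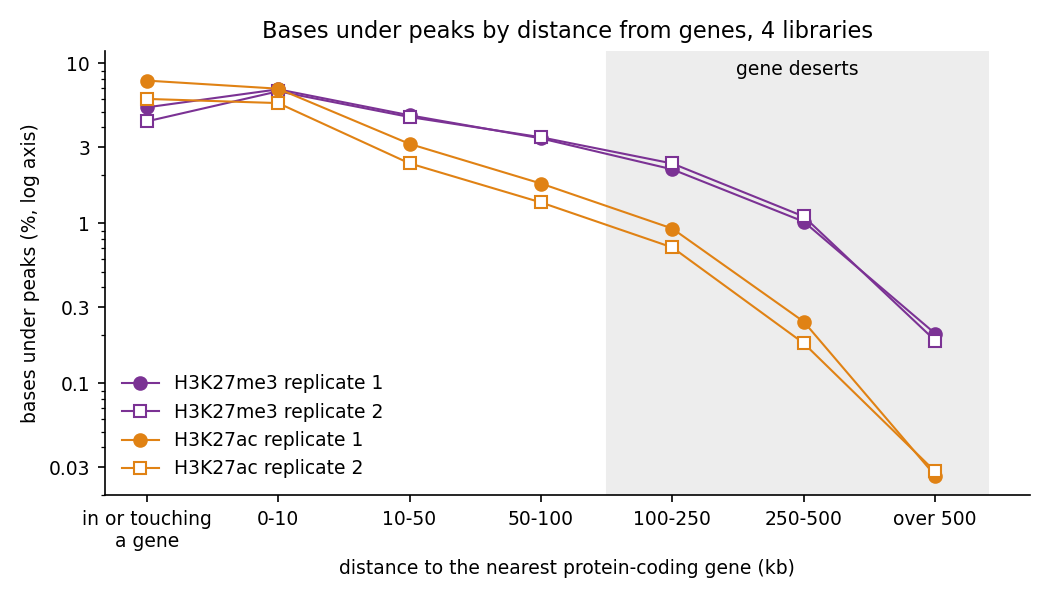
Share of bases under peaks of each of the 4 libraries (log axis) in genes and in classes of distance from the nearest protein-coding gene. Both libraries of a mark follow each other, and the H3K27ac lines fall faster than the H3K27me3 lines, from 7.81% and 6.002% in genes to 0.0266% and 0.0282% beyond 500 kb.

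The regions were gathered in a small part of the desert space. Of 1388 deserts, 324 held a region, 134 of them only 1, while 47 deserts held 10 or more. Those 47 deserts made up 3.05% of desert bases and held 1195 regions, or 63.0%. In them 19.7% of bases lay under replicate 1 peaks and 22.5% under replicate 2 peaks, against 0.276% and 0.217% in the 1064 deserts without a region. They also had the most H3K27ac, at 0.693% of bases in both libraries against 0.128%, and the most annotated noncoding starts, at 10.5 per Mb against 2.37 per Mb. Base composition differed between these sets of deserts. Among noncoding starts without H3K27me3, median G+C was 43.3% in deserts without a region, 45.3% with 1 region, 46.3% with 2 to 4, 45.7% with 5 to 9 and 48.3% with 10 or more. The median number of CpG in these starts was 2 to 3 in every set. The part of base composition in the placing of the regions was not tested.

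A cluster was defined as at least 3 regions with gaps of at most 50 kb. There were 153 clusters with 1486 regions (78.3%), a median of 5 regions each, and 37 clusters had 10 or more. Single libraries gave 289 clusters (replicate 1) and 323 clusters (replicate 2). The median gap between neighbouring regions of a desert was 5.70 kb. A broad peak of 1 library can be cut into several regions by gaps in the other, so region counts are not counts of separate peaks. Clustered regions were longer than the 411 others, with medians of 1159 and 849 bp.

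The desert with most regions lay on chromosome 5 between Mn1, a transcriptional coregulator, and Cryba4, a lens crystallin. It held 96 regions that covered 43.3% of the bases more than 100 kb from either gene, with median folds of 4.30 and 3.63. Mn1 carried both marks at its ends, with H3K27me3 folds of 10.0 and 5.95, and Cryba4 carried H3K27me3 alone. The next, between Matn1, a cartilage matrix protein, and Ptpru, a receptor tyrosine phosphatase, held 82 regions with 34.8% covered and median folds of 4.13 and 3.54. The desert between Rragc, a GTPase of nutrient sensing, and Pou3f1, a POU homeodomain factor, held 62 regions, and Pou3f1 carried H3K27me3 at folds of 11.997 and 5.36 without H3K27ac.

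The other deserts with most regions lay beside genes of varied function. Ajap1, a protein of adherens junctions, had 58 regions in the desert towards Nphp4 and 40 in the desert towards A430005L14Rik, and its own H3K27me3 folds were 8.48 and 5.18. Tafa5, a secreted protein of the nervous system, had 44 regions towards Zdhhc25 and 41 towards Tbc1d22a. Between Gm6569 and the adhesion receptor gene Adgrb1 there were 47 regions. Grik3, a kainate receptor subunit, had 25 regions towards Zc3h12a, which covered 54.1% of that desert, and 23 towards Csf3r. The desert between the zinc finger gene Sall3 and the galanin receptor gene Galr1 held 43 regions over 1205 kb, with only 4.53% covered. Together the 10 deserts with most regions held 552 regions, 29.1% of the total, in 0.987% of desert bases.

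Deserts beside regulators of pattern formation were among those with long or dense regions. Between Irf8, a factor of myeloid cells, and Foxf1, a forkhead factor of mesenchyme, 15 regions covered 73.9% of the desert, the highest share among the deserts with 10 or more regions. The longest region of all was there, at chr8:120870364-120903679, with folds of 7.09 and 5.05, and the next in length, of 22094 bp, lay in the same desert. On the other side of the same gene group, the desert after Foxl1 held 29 regions with 37.5% covered. Between Irx3 and Irx5, homeodomain factors of one gene cluster, there were 22 regions, 18 of them nearer to Irx3. Between Irx2 and Irx4, of the related cluster on chromosome 13, there were 13. The desert between Med13l, a Mediator subunit, and the T-box gene Tbx3 held 39 regions. The 2 deserts that enclose the HoxD cluster held 13 regions (Atp5g3 to Lnpk) and 18 regions (Mtx2 to Gm50595).

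**Figure D3:**
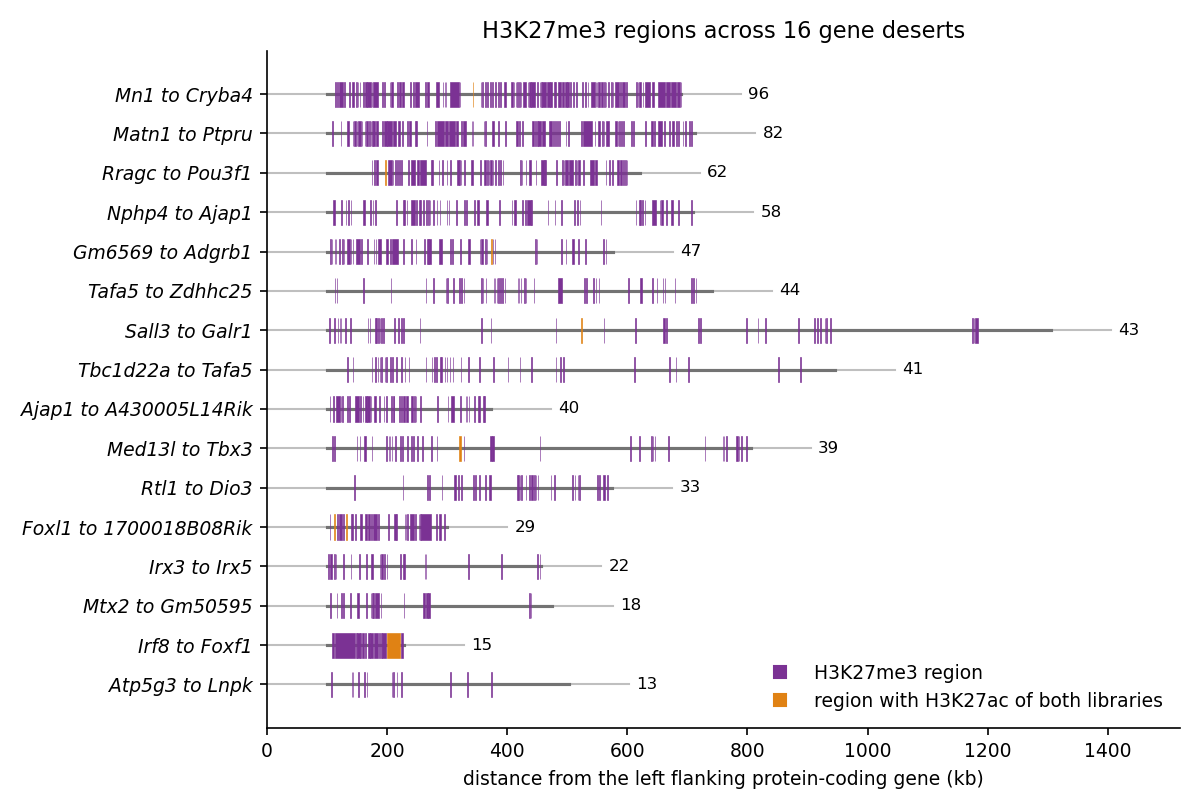
Each line is a desert drawn from its left to its right flanking protein-coding gene (distance in kb), with the dark stretch more than 100 kb from both genes; boxes are H3K27me3 regions, orange where H3K27ac of both libraries overlaps, and the number at the right counts regions. The 12 deserts with most regions are shown with 4 chosen after their values were seen, and the desert of Irf8 and Foxf1 is the most filled, at 73.9%; thin boxes are widened by the width of their outline.

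Chromosomes differed widely in how densely their deserts were marked. Chromosome 4 had 358 regions, or 7.96 per Mb of desert, chromosome 5 had 6.16 per Mb and chromosome 7 had 5.20. Chromosome 3 had 0.476 per Mb, chromosome 14 had 0.673 and chromosome 10 had 0.768. Over the 19 chromosomes the density in deserts and the density of H3K27me3 regions elsewhere had a Spearman correlation of 0.816, from the same 2 libraries.

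Several of the most enriched regions lay in deserts beside regulators or over lncRNA starts. The highest, at chr9:122568533-122573238 between Abhd5 and Topaz1, had folds of 12.7 and 7.97 and held the start of 9530059O14Rik, the most CpG-rich of the starts printed above. A region of 6688 bp between Foxd1, a forkhead factor, and Tmem174 had folds of 11.1 and 6.45, and H3K27me3 at the ends of Foxd1 itself reached 17.6 and 11.8. A region between En1, the engrailed homeodomain factor, and Insig2, a regulator of sterol synthesis, had folds of 11.8 and 5.89 at 569 kb from En1 and 126 kb from Insig2. En1 carried H3K27me3 at folds of 8.82 and 5.91, and Insig2 had no peak of either mark.

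A region over Mir124-2hg, the host transcript of a microRNA of neurons, had folds of 12.3 and 5.86 and no H3K27ac. The region of Gm13652 and 2600014E21Rik in the desert beside HoxD had folds of 11.6 and 5.47. These transcripts start on opposite strands within 2401 bp. Regions towards Pou3f3, a POU homeodomain factor, and towards Tbx3 had folds of 7.96 and 5.38, and of 8.32 and 5.29. The region of Gm4718, 112 kb from Six2, a homeodomain factor of kidney progenitors, had folds of 9.07 and 5.38. Of the 12 most enriched regions it was the only one with H3K27ac of both libraries, with 1228 of its 1511 bp covered. The 12 also include a region before Gdi2, over the pseudogene Gm16505, with folds of 11.0 and 6.27. A region between Gm44812 and Mctp2 had folds of 9.37 and 5.20. Another one between Abhd5 and Topaz1 had 10.99 and 4.88, and another one in the desert of Mir124-2hg, between Ythdf3 and Cypt12, had 10.5 and 5.79. Replicate 1 exceeded replicate 2 in each of the 12.

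Very remote regions were rare. Only 34 regions lay more than 500 kb from a gene. The farthest, 1577 kb from G6pd2 in the desert beside the protocadherin gene Pcdh7, which encodes an adhesion protein, had folds of 4.78 and 4.38 and lay over Cbfa2t2-ps1, a pseudogene. A region 1392 kb from Tenm3, a teneurin of synaptic adhesion, had folds of 8.20 and 4.54 and lay over the lncRNA 1700019L22Rik.

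A few regions stood apart from the rest. In 3 regions the −log10 q of replicate 1 was over 3 times the fold, while the ratio did not exceed 1.69 in any other region. The region at chr2:98666689-98667314 had −log10 q values of 69.4 and 9.004 at folds of only 3.60 and 1.66. The region at chr17:39843006-39848829 lies over Rn18s-rs5, a ribosomal RNA copy, and had −log10 q values of 91.6 and 37.7. The region at chr6:3200767-3201620 had values of 15.9 and 15.1. The first and the second of these also had H3K27ac of both libraries. The first also had the lowest replicate 2 fold of all regions, and the lowest among the others was 2.66. Whether these 3 regions are artefacts of repeated sequence in the genome build was not tested. Without the 3 regions, 1894 remained and 5.28% carried H3K27ac. A further 10 regions lay in antigen receptor loci (6 in Igh, 3 in Tcra and 1 in Igk), which the table does not class as protein-coding. With those loci counted as genes, 1887 regions remained and 5.41% carried H3K27ac.

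H3K27ac was scarcer on desert regions than on H3K27me3 regions nearer to genes. H3K27ac of both libraries overlapped 102 regions, or 5.38%, against 21.1% of all H3K27me3 regions. Replicate 1 alone overlapped 192 (10.1%, against 29.8%) and replicate 2 alone 149 (7.85%, against 24.5%). The share was 30.1% for regions in or touching genes, 13.2% within 10 kb, 7.31% from 50 to 100 kb, 6.36% from 100 to 250 kb and 2.23% from 250 to 500 kb. Beyond 500 kb it was 5.88%, or 2 of 34 regions, and 3.03%, or 1 of 33, without the region at chr2:98666689-98667314, whose −log10 q was out of keeping with its fold. With a limit of 200 kb in place of 100 kb, the share was 2.56%. By bases, H3K27ac of both libraries covered 2.75% of the desert regions and 0.215% of all desert bases. It covered 15.9% of the H3K27me3 regions in or touching genes and 4.62% of all bases in genes. The desert regions thus held less H3K27ac than regions in genes but more than desert bases at large.

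The lower share of desert regions with H3K27ac was seen at every length. Among desert regions it was 4.47% under 1000 bp, 6.18% from 1000 bp to under 2000 bp, 6.44% from 2000 bp to under 5000 bp and 4.41% (3 of 68) at 5000 bp or more. Among the other H3K27me3 regions the shares were 16.05%, 22.2%, 31.0% and 32.1%. Regions are not replicates and these shares come from 2 libraries a mark, so no test is given.

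**Figure D4:**
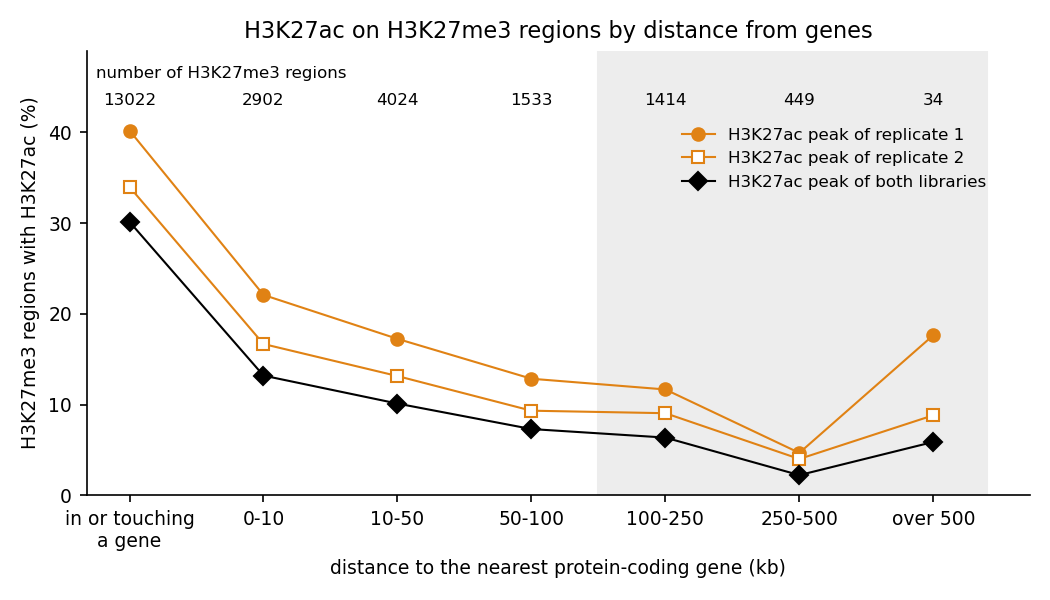
Share of H3K27me3 regions overlapped by H3K27ac peaks of replicate 1, replicate 2 and both libraries, in genes and by distance from the nearest protein-coding gene, with the number of regions above each class and deserts shaded. Shares drop from 30.1% in genes to 2.23% at 250 to 500 kb for both libraries, and the last class rests on 34 regions, with 2 acetylated, 1 of them the region of high −log10 q on chromosome 2.

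H3K27ac fell on isolated regions more than on clustered ones. It overlapped 3.84% of the 1486 clustered regions, 10.9% of the 411 others and 17.2% of the 134 regions that were alone in their desert. Where present it covered a median of 632 bp, or 62.3% of the region. The 102 regions had median H3K27me3 folds of 3.98 and 3.54, against 3.79 and 3.39 for the 1795 others.

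Among the clusters, 35 held a region with H3K27ac. The cluster between Prok2, a prokineticin needed for olfactory bulb neurogenesis, and Rybp, a subunit of Polycomb Repressive Complex 1, had H3K27ac on 6 of its 16 regions. The cluster between Opa1, a mitochondrial fusion protein, and Hes1, a Notch target that holds cells in the progenitor state, had it on 4 of 7. All 3 regions of the cluster between Isl1, a LIM homeodomain factor, and Parp8 carried it, at H3K27me3 medians of 5.73 and 4.59. These clusters were picked out for their acetylation. The largest clusters had little of it, with 1 region of 96 between Mn1 and Cryba4 and 0 of 82 between Matn1 and Ptpru.

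The longest acetylated region was the one of 22094 bp towards Foxf1, with H3K27ac over 1061 bp at folds of 5.74 and 3.65. A region of 3033 bp, 120 kb from Pitx1, a homeodomain factor of the face and hindlimb, had H3K27ac over 2195 bp at folds of 5.77 and 4.09. A region of 2923 bp, 115 kb from Parp11 and 176 kb from Ccnd2, which encodes cyclin D2, had it over 1815 bp at 5.75 and 5.01. A region of 3571 bp, 170 kb from Id2, an inhibitor of bHLH factors, had it over 1928 bp at 3.07 and 2.86.

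The protein-coding genes beside deserts with H3K27me3 regions carried H3K27me3 more often than other genes. The 324 deserts had 610 flanking genes, and 318 (52.1%) carried H3K27me3 of both libraries within 1 kb of an end, against 29.6% of all protein-coding genes. Of the 1821 genes beside deserts without a region, 37.0% did. The share was 49.2% for deserts with 1 region, 48.4% for 2 to 4, 54.9% for 5 to 9 and 69.2% for 10 or more. H3K27ac was close to the background, on 62.6% of the 610 genes and 58.5% of the 1821, against 63% of all genes. Both marks were found on 174 of the 610 genes (28.5%), against 18.2% of all genes. In these counts, peaks of the libraries or of the marks could lie at different ends of a gene. The gene ends and the regions were read from the same libraries. Deserts with a region were also larger, with a median of 300.6 kb against 194.3 kb, and the part of size was not tested.

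**Figure D5:**
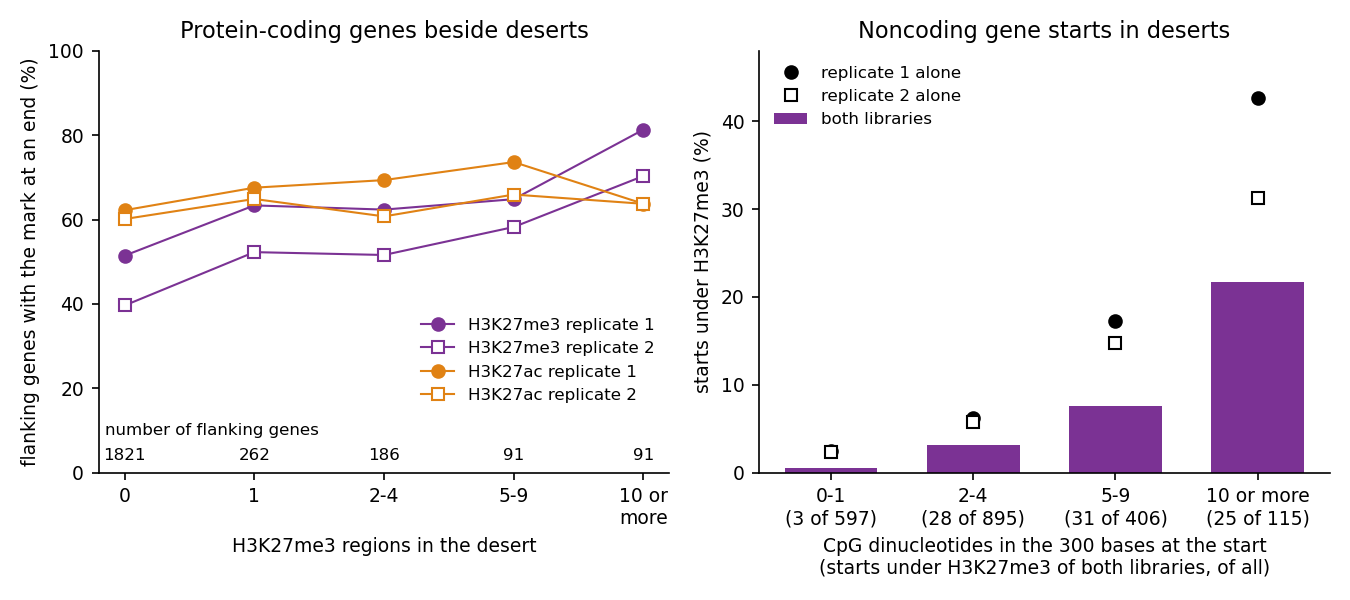
Left, share of flanking protein-coding genes with a peak of each library within 1 kb of an end, by number of H3K27me3 regions in the desert. Right, share of noncoding gene starts in deserts with at least 150 of 300 bases under H3K27me3, by CpG number, for both libraries (bars) and each library (points). H3K27me3 at flanking genes is highest beside deserts with 10 or more regions (81.3% and 70.3%), and starts with 10 or more CpG are most often covered (21.7%).

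Transcription factors were frequent among these flanking genes. The lists of homeobox factors, of Fox, Sox and Tbx factors, of bHLH factors and of zinc finger regulators held 77 of the 610 flanking genes (12.6%), against 1.99% of all genes and 3.73% of the genes beside deserts without a region. The homeobox list gave 32, the Fox, Sox and Tbx list 22, the zinc finger list 17 and the bHLH list 6. Of the 77, 68 (88.3%) carried H3K27me3 and 44 (57.1%) carried H3K27ac. Among all 410 genes of these lists, which include the 77, the shares were 85.9% and 50.2%. Beside deserts without a region there were 68 such factors, and the H3K27me3 share was taken for 60 of them, at 76.7%. The H3K27me3 share of the 77 was thus near that of the whole lists and above that of these 60. Of the 533 other genes among the 610, 46.9% carried H3K27me3.

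Among the homeobox factors, Irx5 carried H3K27me3 at folds of 12.4 and 8.68 and H3K27ac at 5.12 and 4.78. Msx2, beside 19 regions, carried H3K27me3 at 11.6 and 8.14 with H3K27ac at 3.01 and 2.96. Prox1, beside 16, carried H3K27me3 at 7.24 and 5.63 with H3K27ac at 7.25 and 5.30. Lhx1, beside 14 regions, had H3K27me3 at 11.5 and 7.20 and an H3K27ac peak only in replicate 1. Of the Fox, Sox and Tbx factors 21 of 22 carried H3K27me3. Sox2, a factor of globose basal cells, had H3K27me3 at 6.397 and 4.92 with H3K27ac at 9.69 and 6.61 beside 4 regions. Of the bHLH factors, Id2 and Tcf4 had no H3K27me3 peak, and Hes1 had both marks, with H3K27ac at 9.37 and 8.83.

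Signalling ligands made up 0.984% of the flanking genes beside deserts with a region and 1.48% beside those without, against 0.511% of all genes. All 6 beside marked deserts carried H3K27me3, against 85.7% of the whole list. Among them were Bmp7 beside 10 regions at 4.38 and 3.86 and Shh beside 4 regions at 10.4 and 5.81. Of 19 ion channels and transmitter receptors, 17 carried H3K27me3 and 2 carried H3K27ac, against 75.2% and 41.9% of the whole list. In this list Grik3, Galr1 and the dopamine receptor gene Drd1 (19 regions, folds of 7.07 and 5.34) had most regions. All 7 axon guidance genes carried H3K27me3 (73.2% of the whole list), as did 12 of 15 synaptic adhesion genes (75.9%) and 6 of 8 cadherins and protocadherins (32.2%). Beside deserts with and without a region, ion channels and transmitter receptors made up 3.11% and 3.57% of the flanking genes, against 1.45% of all genes. Axon guidance genes made up 1.15% and 1.43%, against 0.345%, and synaptic adhesion genes 2.46% and 2.20%, against 0.384%. Cadherins and protocadherins made up 1.31% and 1.04%, against 0.438%. For these lists, the ligands aside, the share beside marked deserts was thus close to that beside unmarked ones. Of 1467 olfactory and vomeronasal receptor genes 1 flanked a marked desert, Vmn1r2, and it carried neither mark. Of the whole list, 6.88% carried H3K27me3 and 0.273% carried H3K27ac. These receptors made up 0.164% of the flanking genes beside marked deserts and 1.26% beside unmarked ones, against 7.14% of all genes.

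Deserts with 10 or more regions also lay beside 2 acetylated genes of globose basal cells, picked out after their values were seen. The desert between Mki67, a marker of dividing cells, and Mgmt held 14 regions over 1.94% of its bases, and Mki67 carried H3K27ac at folds of 8.29 and 5.68 with an H3K27me3 peak only in replicate 1. The desert between Gadd45g, a gene of early neuronal progenitors, and Diras2 held 10 over 2.34% of its bases, and Gadd45g carried H3K27ac at 10.5 and 7.76 with an H3K27me3 peak only in replicate 1, at 3.90. Regions did not gather on the side of the transcription factor. In 72 deserts with such a factor on 1 side, 214 of 424 regions (50.5%) were nearer to it, and most regions were nearer to it in 30 deserts and to the other gene in 36.

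Noncoding genes lay under 450 of the regions, or 23.7%, against 25.7% of all H3K27me3 regions outside protein-coding genes, a share near the background. Noncoding genes covered 12.8% of desert bases and held 21.8% of the region bases. The regions overlapped 282 noncoding genes, of which 259 were lncRNAs and 13 pseudogenes. Of 2031 lncRNA genes wholly in deserts, 218 (10.7%) were overlapped by a region. Counting any base under H3K27me3 of both libraries, as for the background, 356 of them (17.5%) were touched, against 26.1% of all lncRNA genes. Desert lncRNA genes were longer, with a median of 12.6 kb against 8.43 kb, while the smaller share of them was touched.

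The lncRNA with most covered bases was Gm32611, between Zc3h12a and Grik3, with 45073 bp in 11 regions, or 31.2% of the gene. Gm36794, between Mn1 and Cryba4, followed with 31495 bp (60.8%), and Gm29890, between Kif26a and A530016L24Rik, had the highest share of the 20 most covered, at 85.9%. Tunar had 9390 bp in 3 regions at folds of up to 8.72 and 4.89, with no H3K27ac. Mirg, a transcript of the imprinted cluster, was touched over 424 bp. Most of the other transcripts of this group are predicted genes, and no role is given for them here.

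H3K27me3 at noncoding starts in deserts went with CpG content. Of 2013 starts wholly in deserts, 87 starts of 76 genes had at least 150 of 300 bases in a region, 1881 had no base under H3K27me3 of both libraries, and 45 had fewer. Starts were counted singly, also where starts of 1 gene or of neighbouring genes overlap, so 1 place can count more than once in these shares. The covered starts had a median of 6 CpG (0 to 38) and 52.7% G+C, and the uncovered starts 3 CpG (0 to 33) and 44.3%. The share covered was 0.503% with 0 or 1 CpG (3 of 597), 3.13% with 2 to 4, 7.64% with 5 to 9 and 21.7% with 10 or more (25 of 115). In replicate 1 alone the shares ran from 2.51% to 42.6%, and in replicate 2 alone from 2.35% to 31.3%. H3K27ac rose over the same classes, from 1.51% to 20.9% in replicate 1 and from 1.34% to 18.3% in replicate 2. The order of the classes was thus the same for both marks.

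Even so, covered desert starts were poor in CpG next to other H3K27me3 starts. 25 of the 87 (28.7%) had 10 or more CpG, against 54.0% of 1150 covered noncoding starts outside deserts and 75.7% of 3216 covered protein-coding starts. Among all starts of the same length, 19.1% of noncoding and 57.9% of protein-coding starts had 10 or more. H3K27ac of both libraries touched 10 of the 87 covered starts (11.5%) and 87 of the 1881 uncovered ones (4.63%), against 21.5% of all noncoding starts and 33.0% of the covered noncoding starts outside deserts. The 10 include several overlapping starts of Gm4718 in a single region, so they stand for fewer places.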

How the data were processed

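ChIP-seq peak lists of 2 H3K27me3 and 2 H3K27ac libraries were used, on GRCm38 (mm10). Reads were processed with MACS2, Picard, Bowtie and fastp, per the submitters' processing notes, and the tool versions are not given in the sources used here. For each library the authors called broad peaks and deposited for each peak a fold enrichment (a linear ratio), a −log10 p, a −log10 q and a score. Those values are the authors' own and only describe, rank and filter peaks. In each list the lowest −log10 q lay just above 1. Read totals are unknown, so no interval or detection limit is given.

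Peaks of a library were merged, and bases covered in both libraries of a mark were kept, with Python 3.11.15, numpy 2.4.6 and pandas 2.3.3. A region took the highest fold and −log10 q of the peaks over it in each library. Neighbouring regions under the same peak of a library therefore share its values. The gene table, RefSeq of GRCm38.p6, has no strand and gave 20558 protein-coding and 26151 noncoding genes. Entries on scaffolds (333) were left out. A desert is the sequence between neighbouring protein-coding genes that lies more than 100 kb from both. A gene carried a mark when peaks of both libraries lay within 1 kb of either gene end, and the end could differ between the libraries. Start sequences and microRNAs came from RefSeq. No genome was used, so G+C content of the regions was not computed, as had been planned. Interval functions were tested on simulated data.

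There was no comparison between groups of samples, and no test was made: regions and genes are not replicates, and every share is a description of these libraries. The regions and the gene lists were chosen with earlier results of these data known. Named are the 12 regions of best mean fold rank, the 10 longest, the 5 farthest, up to 12 with H3K27ac by length and the 10 largest clusters, with their flanking genes, up to 8 flanking genes per list, the 20 noncoding genes with most covered bases and all microRNAs. Other names, such as those of the deserts shown for Irf8, Irx3 and HoxD, of clusters rich in H3K27ac and of Mir124-2hg, Mirg and single noncoding starts, were chosen after values were seen. Alternatives changed the distance, length, q, overlap, cluster gap, windows and libraries.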

Additional observations from a re-analysis of the deposited data

How the results depend on the processing

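No paired analysis was possible because no result comes from a test, and a replicate number shared by the marks does not tie their libraries together. Most quantities follow from the limits chosen. With a distance limit of 50 kb there were 3430 regions, 5491223 bases, 0.785% of desert bases covered, 14.7% of H3K27me3 regions in deserts, 263 clusters and 25.7% of regions over a noncoding gene. With 200 kb these were 782, 1158933, 0.313%, 3.35%, 67 and 21.6%, and 2.56% of regions carried H3K27ac. A minimum length of 200 bp gave 3287 regions. A minimum length of 1000 bp gave 1025 regions, 85 clusters and 25.8% over a noncoding gene. With peaks of both marks limited by q, a −log10 q of at least 2 gave 656 regions, 1455249 bases, 0.245% covered, 54 clusters, 25% over a noncoding gene and H3K27me3 at 42.3% of flanking genes. A −log10 q of at least 5 gave 14 regions, 39828 bases, 0.00693% covered, 0.913% of regions in deserts, 0 clusters, 7.14% with H3K27ac, 57.1% over a noncoding gene and 13.6% of flanking genes. The 14 regions included the 3 of high −log10 q for their fold, so the shares at this limit rest partly on them. Background shares were not recomputed under these limits.

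Leaving out 1 H3K27me3 library gave 4557 to 4625 regions, 6355667 to 7463733 bases, 1.24% to 1.33% covered, 8.90% to 11.2% of regions in deserts and 289 to 323 clusters. H3K27ac then overlapped 4.06% to 6.08%, noncoding genes 23.5% to 25.1%, and 49.4% to 59.7% of flanking genes carried H3K27me3. Leaving out 1 H3K27ac library gave 7.85% to 10.1% of regions with H3K27ac. A noncoding gene within 1 kb was found for 25.7%. The other alternatives, including the stricter rule on peak overlap, moved counts by less than 1.5 times and shares by less than the spread of single libraries. The same held without predicted genes, and for the 2 alternatives added after seeing the data (without the 3 regions of high −log10 q, and with antigen receptor loci as genes). Depth is unknown, so absence of a peak is not absence of a mark.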
